A study of Danio rerio with 6 samples.

Results

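The rows examined here are the zebrafish microRNAs (miRNAs) miR-25, miR-92, miR-93 and miR-363. They were chosen by name, as every zebrafish (dre-) row with exactly one of these numbers, whatever its arm or letter. This gave 8 of the 289 miRNAs listed in each sample, of which 214 are zebrafish rows and the others are named for another species (ssa- is Atlantic salmon) or as candidates with the prefix PC. Follicular cells of 2 stages were compared, both from the ovary of untreated zebrafish bought from a local supplier, whose strain and age are not given in the sources used here. Stage IIIb follicles were the larger, mid- to late vitellogenic ones, and stage IIIa follicles were the smaller, early vitellogenic ones, which are not yet competent to mature. Each stage had 3 samples, and each sample pooled the stripped cell layers of many follicles from several fish, so that it was an average over animals and over every cell type of the layer. As the measure is bulk RNA, fewer cells of a type and less RNA per cell cannot be told apart.

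A miRNA is cut from a hairpin precursor whose 5′ and 3′ arms can each give a mature strand, named 5p and 3p. One strand usually enters the silencing complex and accumulates, while its partner is mostly degraded. Bases 2 to 8, the seed, direct the pairing with target mRNAs, and miRNAs with the same seed are grouped as a family. miR-92, miR-25 and miR-363 form such a family. In mammals miR-92a is made from the miR-17-92 polycistron, known for promoting proliferation, and is abundant in endothelium, whereas miR-25 and miR-93 share a transcript with miR-106b.

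The mature sequences of the deposited rows show which members can recognise the same sites, so they are given 5′ to 3′ with the seed in capitals. Those of the 4 strands from the 3′ arm are as follows.
dre-miR-92a-3p: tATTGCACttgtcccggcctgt
dre-miR-92b-3p: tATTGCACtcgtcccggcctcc
dre-miR-25-3p: cATTGCACttgtctcggtctga
dre-miR-363-3p: aATTGCACggtatccatctgta

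All 4 carried the seed ATTGCAC, and no other of the 289 rows did. Counted from 1 at the 5′ end of dre-miR-92a-3p, dre-miR-92b-3p differed from it by T10C, G21C and T22C. dre-miR-25-3p differed by T1C, C14T, C18T and T22A. dre-miR-363-3p shared the seed but only 10 of its 22 bases with dre-miR-92a-3p. The authors allowed 1 mismatch and ends of varying length in aligning reads, so a dre-miR-92a-3p or dre-miR-92b-3p read that lacks the last bases differs from the other strand by T10C alone, and the split of reads between these strands is uncertain to that extent.

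The remaining members did not have that seed, and are shown because their behaviour is set against the 3p strands below.
dre-miR-92a-5p: aGGTTGGGattggtagcaatgct
dre-miR-92a-2-5p: aGGTTGGGatcggccgcaatgct
dre-miR-25-5p: aGGCGGAGacttgggcagctgcc
dre-miR-93: aAAAGTGCtgtttgtgcaggta

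The 2 miR-92a 5p strands shared a seed with each other and differed by T11C, T14C and A15C, counted on dre-miR-92a-5p. By its name dre-miR-92a-2-5p comes from the mir92a-2 hairpin, while the single listed dre-miR-92a-3p does not tell the hairpins apart. The seed of dre-miR-25-5p was found in no other row. dre-miR-93 carried the seed AAAGTGC, shared with dre-miR-17a-5p, dre-miR-20a-5p and dre-miR-20b-5p, and so by sequence belongs to the miR-17 family and not to that of miR-92.

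By the order of genes in the RefSeq annotation of the GRCz12tu assembly, used for neighbours only, most members lie in groups. Within 2 kb of mir92a-1, on chromosome 1, lay the genes of miR-19b, miR-20a, miR-19a, miR-18a and miR-17a. Those of miR-18b and miR-17a lay beside mir92a-2, on chromosome 9. The genes of miR-25, miR-19d and miR-93 lay together on chromosome 14. mir363 had miR-19c, miR-20b and miR-18c beside it, also on chromosome 14, while mir92b, on chromosome 16, had 0 miRNA genes within 2 kb.

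The values are normalized counts, that is, reads assigned to a miRNA divided by the authors' library size parameter. Their total over the listed miRNAs was between 1779302 and 3166619 per sample. The step worth 1 read was the largest that fitted a share of at least 0.8 of the values under 400. On that footing the listed miRNAs held from 1129114 reads (stage IIIa replicate 1) to 9045233 reads (stage IIIb replicate 3). miR-202, known as a gonadal miRNA, took 16.0% to 23.4% of the counts in each sample. The 6 listed rows of miR-451, miR-144 and miR-2188, which mark red blood cells, summed to 5142, 3185 and 2863 in stage IIIb replicates 1, 2 and 3, and to 19142, 32402 and 23518 in stage IIIa replicates 1, 2 and 3. miR-486 of that list had no row. The stage IIIa pools thus held more red blood cell miRNA than the stage IIIb pools, and the part of this in the stage values below was not tested. Of the markers of skeletal muscle and liver, miR-133a reached at most 161 normalized counts and miR-122 at most 784.

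All 8 members were above 0 in all 6 samples, and together they took 8.55% ± 3.61 (SD, n = 6) of the normalized counts. Stage IIIa replicate 1 stood at 15.6% and the other pools between 6.33% and 9.31%. The mean was 6.58% ± 0.222 in stage IIIb and 10.5% ± 4.58 in stage IIIa (SD, n = 3 each). An exact two-sided permutation test gave p = 0.30, adjusted over 17 such tests 0.51. The members covered a very wide range of levels. dre-miR-92a-3p averaged 153861 normalized counts over the 6 samples and ranked 4 of 289, dre-miR-25-3p averaged 26340 and ranked 13, and dre-miR-92b-3p averaged 3989 and ranked 50. dre-miR-93 averaged 1319, dre-miR-363-3p averaged 409 and dre-miR-92a-5p averaged 87.5 normalized counts. The order of these 6 was the same in every sample, with no overlap between the ranges of neighbours. Below them the order was not fixed. dre-miR-25-5p, with a mean of 53.0, was under dre-miR-92a-5p in 5 of 6 samples and above dre-miR-92a-2-5p, with a mean of 46.1, in 4 of 6, and the ranges of these neighbours overlapped.

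Among the members, dre-miR-92a-3p held 81.7% ± 4.44 of the counts and dre-miR-25-3p 15.1% ± 4.01 (SD, n = 6 for each). dre-miR-92b-3p added 2.16% ± 0.467 and dre-miR-363-3p 0.232% ± 0.0817 (SD, n = 6 for each). The pool of the ATTGCAC seed was therefore nearly all miR-92a and miR-25. The mature strands are 22 or 23 bases long, so these levels were not divided by length.

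None of the 8 members passed the test between the stages. Over all 289 miRNAs, limma, a linear model with moderated variances, at an adjusted p under 0.05 called 2.42% as higher and 2.08% as lower in stage IIIb, and 0 members were among them in either direction. By unadjusted p, at 0.05 or less, 9.69% of all miRNAs were higher and 5.19% lower, and 0 members passed here too. The stages did not overlap for 1 of the 8 members, dre-miR-25-5p, where 11.8% of all miRNAs were separated with stage IIIb higher and 7.96% with stage IIIb lower. A count of 1 in 8 is near that background. The median log2 fold change of the members was 0.15, and that of all 289 miRNAs was also 0.15. With samples rescaled to equal totals both medians were -0.16. Rescaling moves every row by nearly the same amount, so this second agreement follows from the first and adds nothing to it.

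**Figure D1:**
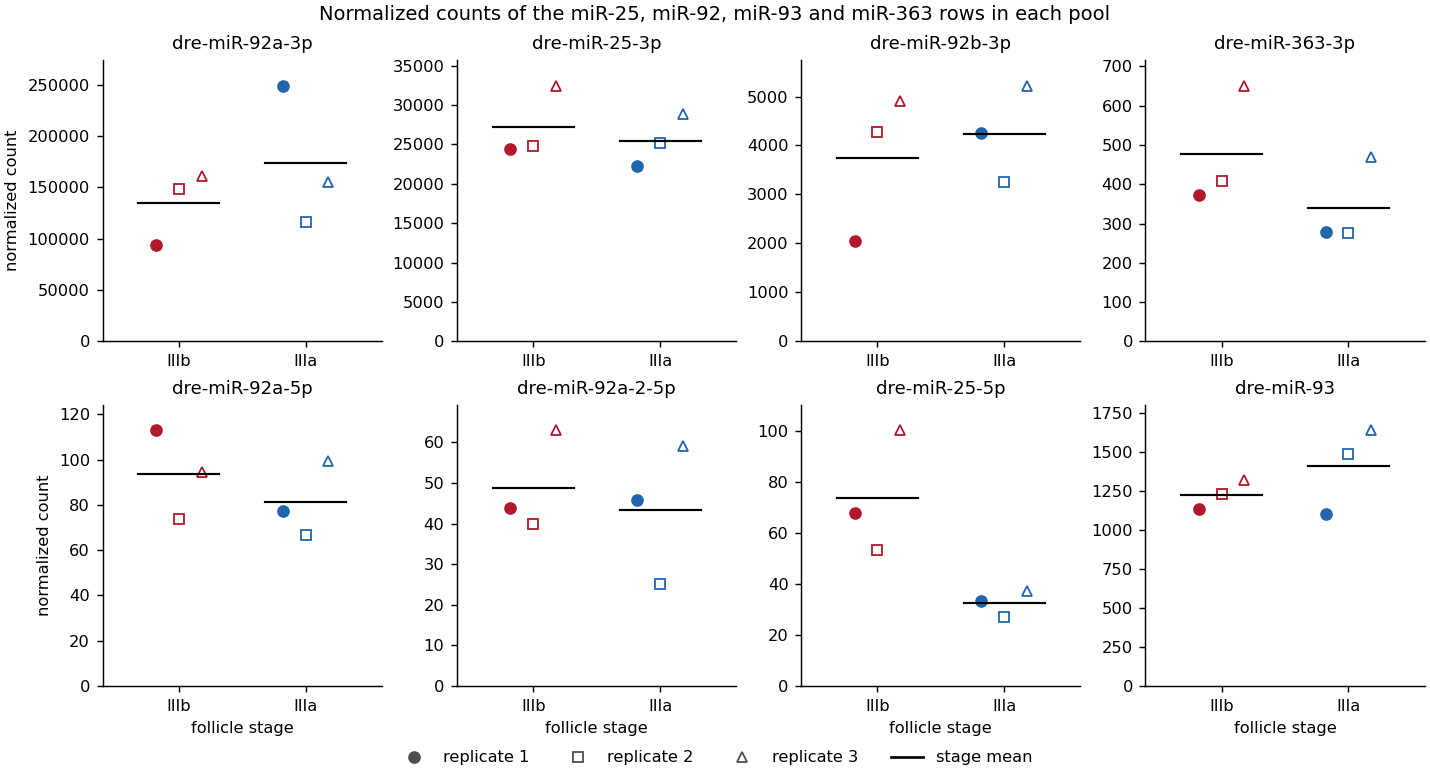
Normalized count (vertical axis, linear, from 0) of each of the 8 members in the 3 stage IIIb pools (red, left) and the 3 stage IIIa pools (blue, right), with symbols for the replicate and a line at the stage mean. The stages overlap in every panel but that of dre-miR-25-5p, and 1 stage IIIa pool stands at 249073 for dre-miR-92a-3p.

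dre-miR-92a-3p, the main strand of miR-92a, had the largest share of all members and an uneven level among the stage IIIa pools. It had 94195, 148129 and 160783 normalized counts in stage IIIb replicates 1, 2 and 3, against 249073, 116078 and 154906 in stage IIIa replicates 1, 2 and 3. The high value was that of 1 pool, stage IIIa replicate 1, while the other stage IIIa pools lay within the range of stage IIIb. The mean was 134369 ± 35363 in stage IIIb and 173352 ± 68390 in stage IIIa (SD, n = 3 each), and the log2 fold change was -0.33 with an SE of 0.36 (adjusted p = 0.685 in limma). Without stage IIIa replicate 1 the log2 fold change was -0.03 (SE 0.36). As a share of each library, dre-miR-92a-3p took 5.18%, 5.54% and 5.08% of the counts in stage IIIb, against 14.0%, 5.28% and 7.54% in stage IIIa. The stage IIIb shares were close to each other and those of stage IIIa were not, and the stages overlapped (exact two-sided permutation test, p = 0.20, adjusted over 17 such tests 0.486). With samples rescaled to equal totals the log2 fold change was -0.65 (limma adjusted p = 0.285), so its size depended on the scaling and its call did not.

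The spread of dre-miR-92a-3p among stage IIIa pools was above that of most abundant miRNAs. Its highest stage IIIa pool was 2.15 times its lowest, and its highest stage IIIb pool 1.71 times its lowest. On the log2 scale its SD was 0.42 in stage IIIb and 0.56 in stage IIIa, where the medians of all 289 miRNAs were 0.53 and 0.41. Among the 103 miRNAs with a mean of at least 1000 normalized counts, it ranked 61 by SD in stage IIIb and 17 in stage IIIa. After rescaling to equal totals the contrast was wider, with an SD of 0.07 in stage IIIb and 0.71 in stage IIIa. With samples rescaled by the median of ratios the SDs were 0.21 and 0.72, so the closeness of the stage IIIb pools depended on the scaling. These spreads are descriptions from 3 pools a stage and were not tested against each other.

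The excess in stage IIIa replicate 1 was smaller or absent in the other members, though the 5p strands had few reads there. Relative to the mean of the other two stage IIIa pools, this pool had 1.84 times as much dre-miR-92a-3p, whereas the median over all 289 miRNAs was 0.757. That ratio stood at position 2 of the 103 abundant miRNAs, after ssa-miR-148a-5p at 1.92 and before dre-miR-222a-3p at 1.73. dre-miR-92b-3p was at 1.003, dre-miR-25-3p at 0.823, dre-miR-363-3p at 0.744 and dre-miR-93 at 0.705. The 5p strands of the miR-92a hairpins were at 0.928 for dre-miR-92a-5p and 1.08 for dre-miR-92a-2-5p. dre-miR-25-5p was at 1.03. The highest ratio of any other member was thus 1.08. Apart from dre-miR-363-3p and dre-miR-93, these members were above the median of 0.757 over all miRNAs in this pool. dre-miR-92a-2-5p had an SD of 0.61 among the stage IIIa pools, but its highest pool was replicate 3. Within stage IIIa, replicate 1 also had the fewest reads, the lowest total of normalized counts and the lowest sum for every marker list. These were the gonadal, red blood cell, white blood cell, endothelial, smooth muscle, skeletal muscle and liver markers. Endothelial miR-126 was at 24940 in replicate 1 and at 48079 and 35583 in replicates 2 and 3. Gonadal miR-202 was at 312801, 352346 and 374633 in replicates 1, 2 and 3. As a share of the counts, replicate 1 was the lowest for each list except miR-202, at 17.6% against 16.0% and 18.2%. The total of these shares includes dre-miR-92a-3p, at 14.0% in replicate 1 against 5.28% and 7.54%. Its excess therefore lowers every other share in that pool, and nothing is drawn from the order of the shares. The muscle and liver lists held 1 row each, at 71.7 and 0 normalized counts in replicate 1. The part of these in the excess was not tested.

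**Figure D2:**
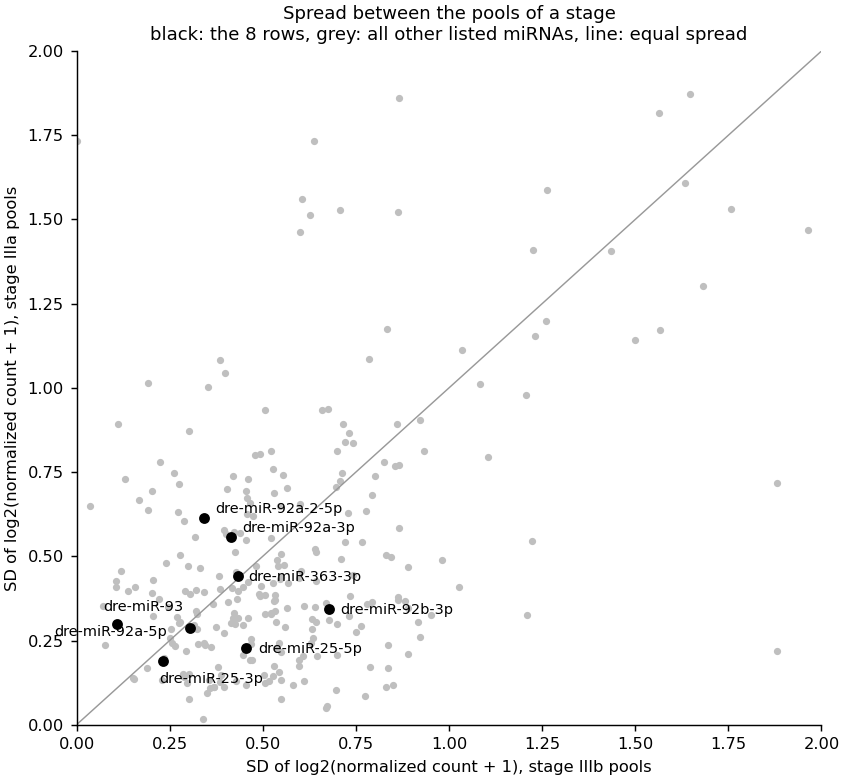
SD of log2(normalized count + 1) among the 3 stage IIIb pools (horizontal) and the 3 stage IIIa pools (vertical) for the 8 members (black) and all other listed miRNAs (grey), with a line at equal spread; 16 miRNAs lie beyond the plotted range. dre-miR-92a-3p (0.42 and 0.56) lies above the line and dre-miR-92b-3p (0.68 and 0.34) below it.

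The relatives with the same seed did not pass the test either. dre-miR-92b-3p, the product of a separate gene, had 2045, 4268 and 4905 normalized counts in stage IIIb replicates 1, 2 and 3, against 4247, 3247 and 5222 in stage IIIa. Its low value was that of stage IIIb replicate 1, and the stages overlapped (log2 fold change -0.25, SE 0.39, limma adjusted p = 0.794). Without that pool the log2 fold change was 0.14 (limma adjusted p = 0.853). dre-miR-25-3p, the main strand of miR-25, had the smallest SD of the 4 in both stages as deposited, 0.23 in stage IIIb and 0.19 in stage IIIa on the log2 scale. It had 24360, 24855 and 32465 normalized counts in stage IIIb, against 22263, 25210 and 28884 in stage IIIa, and the log2 fold change was 0.09 with an SE of 0.30 (adjusted p = 0.914 in limma). Its stages overlapped, and the sign was negative, at -0.22, with samples rescaled to equal totals. dre-miR-363-3p, which lies in another cluster, had 371, 408 and 651 normalized counts in stage IIIb, against 277, 275 and 470 in stage IIIa. In both stages replicate 3 was the highest, and the stages overlapped (log2 fold change 0.49, SE 0.39, limma adjusted p = 0.590).

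dre-miR-93, whose seed is that of miR-17, had 1133, 1231 and 1319 normalized counts in stage IIIb, against 1102, 1486 and 1640 in stage IIIa. Stage IIIa replicate 1 was the lowest of the 6 and the stages overlapped (log2 fold change -0.18, SE 0.32, limma adjusted p = 0.841). dre-miR-93 and dre-miR-25-3p come from neighbouring genes. Per dre-miR-93 count there were 21.5, 20.2 and 24.6 counts of dre-miR-25-3p in stage IIIb, against 20.2, 16.96 and 17.6 in stage IIIa. This ratio varied little between pools, and its difference between stages, 0.27 on the log2 scale, gave p = 0.20 (exact two-sided permutation test, adjusted 0.486, a ratio chosen after the values were seen).

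Ratios taken within a sample do not depend on how the samples were scaled. There were 3.87, 5.96 and 4.95 counts of dre-miR-92a-3p per count of dre-miR-25-3p in stage IIIb, against 11.2, 4.60 and 5.36 in stage IIIa (exact two-sided permutation test, p = 0.50, adjusted 0.654). Stage IIIa replicate 1 was the highest pool, and without it the difference in the log2 ratio was -0.03, against -0.43 with it. Per count of dre-miR-92b-3p there were 46.1, 34.7 and 32.8 counts of dre-miR-92a-3p in stage IIIb, against 58.6, 35.7 and 29.7 in stage IIIa (exact two-sided permutation test, p = 0.80, adjusted 0.850). Replicate 1 was the highest of each stage, and the stages overlapped.

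The balance of the miR-25 arms did not overlap between the stages, and that of the miR-92a arms did, though neither difference passed its test. How often the arm ratios of other miRNAs separate the stages was not counted. dre-miR-25-5p, the minor strand of the miR-25 hairpin, had 67.8, 53.1 and 100.1 normalized counts in stage IIIb replicates 1, 2 and 3, against 33.1, 26.9 and 37.1 in stage IIIa. Every stage IIIb pool was above every stage IIIa pool. As a share of the counts the margin was narrow, with 0.00199% in stage IIIb replicate 2 and 0.00186% in stage IIIa replicate 1. The mean was 73.7 ± 24.0 in stage IIIb and 32.4 ± 5.15 in stage IIIa (SD, n = 3 each), a ratio of means of 2.28. The log2 fold change was 1.13 (SE 0.54), which did not pass the test over all miRNAs (limma, unadjusted p = 0.0597, adjusted p = 0.339). The equal-variance test on untransformed counts, which the study's methods name, and which they read at an unadjusted p of 0.05, gave an unadjusted p of 0.0436 and an adjusted p of 0.423 in its linear model form. By that unadjusted limit it called 5.54% of all miRNAs as higher and 5.54% as lower in stage IIIb, and dre-miR-25-5p was the 1 member among them. For dre-miR-25-5p the adjusted p in limma was 0.182 to 0.357 under the other alternatives on all 6 samples. Without the trend its unadjusted p in limma was 0.0174. It was 0.0302 with the replicate number as a block, 0.0411 with the median of ratios and 0.0521 to 0.129 in the others. With equal totals the log2 fold change was 0.82 (limma, unadjusted p = 0.102). At 0.05 or less, the median of ratios called 36 of all 289 miRNAs as higher and 31 as lower. The shares without the trend and with the block were not counted. With any 1 pool left out, the log2 fold change was between 0.88 and 1.33 and the adjusted p between 0.299 and 0.586.

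These low counts rest on few reads. Taking 1 step as 1 read, dre-miR-25-5p had 96, 64 and 286 reads in stage IIIb, against 21, 49 and 69 in stage IIIa. The 95% exact Poisson interval, which covers counting error only, was 40.9 to 67.8 normalized counts for the lowest stage IIIb pool, replicate 2, and 28.9 to 46.9 for the highest stage IIIa pool, replicate 3. These intervals overlapped, as did that of stage IIIa replicate 1, 20.5 to 50.6. The intervals of stage IIIb replicates 1 and 3, 54.9 to 82.8 and 88.9 to 112, lay above all those of stage IIIa.

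**Figure D3:**
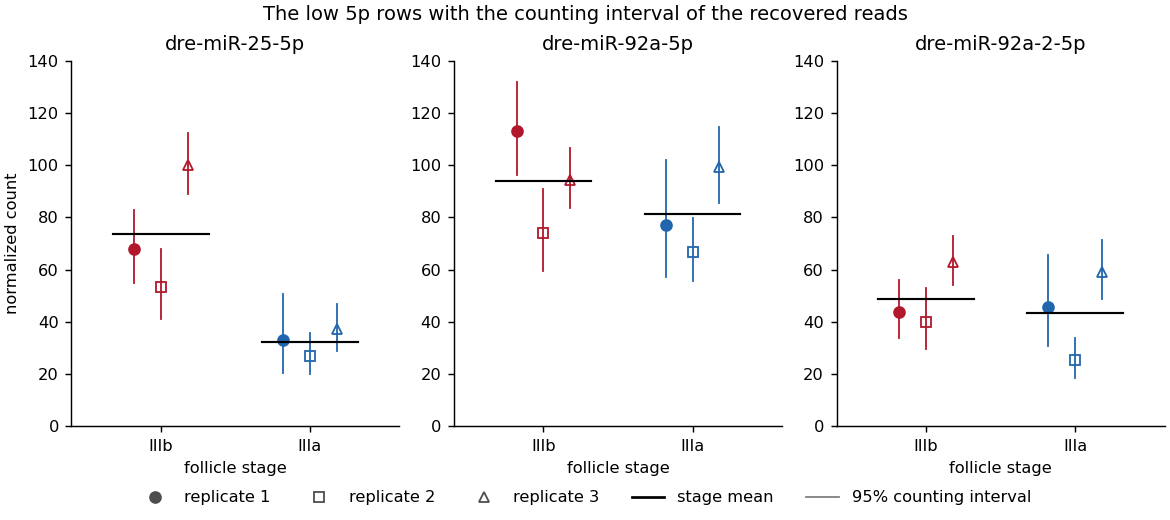
Normalized counts (vertical axis, linear, from 0) of the 5p strands in the stage IIIb pools (red, left) and stage IIIa pools (blue, right), with the 95% Poisson interval of the recovered reads as vertical bars and the stage mean as a line. dre-miR-25-5p lies between 53.1 and 100.1 in stage IIIb and between 26.9 and 37.1 in stage IIIa, while the stages overlap for both miR-92a strands.

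Against its own 3p strand, dre-miR-25-5p was higher in stage IIIb. The 3p strand itself changed little, with a log2 fold change of 0.09. This ratio and that to dre-miR-93 below use the same few dre-miR-25-5p reads, so they are no separate support for a stage difference. There were 359, 468 and 324 counts of the 3p strand per count of the 5p strand in stage IIIb, against 673, 938 and 779 in stage IIIa. The stages did not overlap, and the difference in the log2 ratio was -1.06, or 0.480-fold. By an exact permutation test, two-sided, this had p = 0.10, which no design of 3 against 3 can go below, and 0.486 after adjustment over the 17 tests. Per count of the neighbouring dre-miR-93, dre-miR-25-5p stood at 0.0599, 0.0432 and 0.0759 in stage IIIb and at 0.0300, 0.0181 and 0.0226 in stage IIIa (exact permutation test, p = 0.10, adjusted 0.486, also chosen after the values were seen). The 3p strand remained in large excess in every pool.

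The 5p strands of miR-92a showed no such separation. dre-miR-92a-5p had 113, 73.9 and 94.5 normalized counts in stage IIIb, against 77.2, 66.9 and 99.4 in stage IIIa (log2 fold change 0.20, SE 0.44, limma adjusted p = 0.867). dre-miR-92a-2-5p, from the mir92a-2 hairpin by its name, had 43.8, 39.8 and 63.0 in stage IIIb, against 45.7, 25.2 and 59.1 in stage IIIa (log2 fold change 0.22, SE 0.58, limma adjusted p = 0.892). Both overlapped between stages, and reads numbered 49 to 270 for dre-miR-92a-5p and 29 to 180 for dre-miR-92a-2-5p. The sum of both strands was exceeded by dre-miR-92a-3p 601, 1303 and 1021 times in stage IIIb, against 2026, 1260 and 977 times in stage IIIa (exact two-sided permutation test, p = 0.50, adjusted 0.654). The extremes were stage IIIb replicate 1, the lowest, and stage IIIa replicate 1, the highest. The other four pools lay between 977 and 1303.

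**Figure D4:**
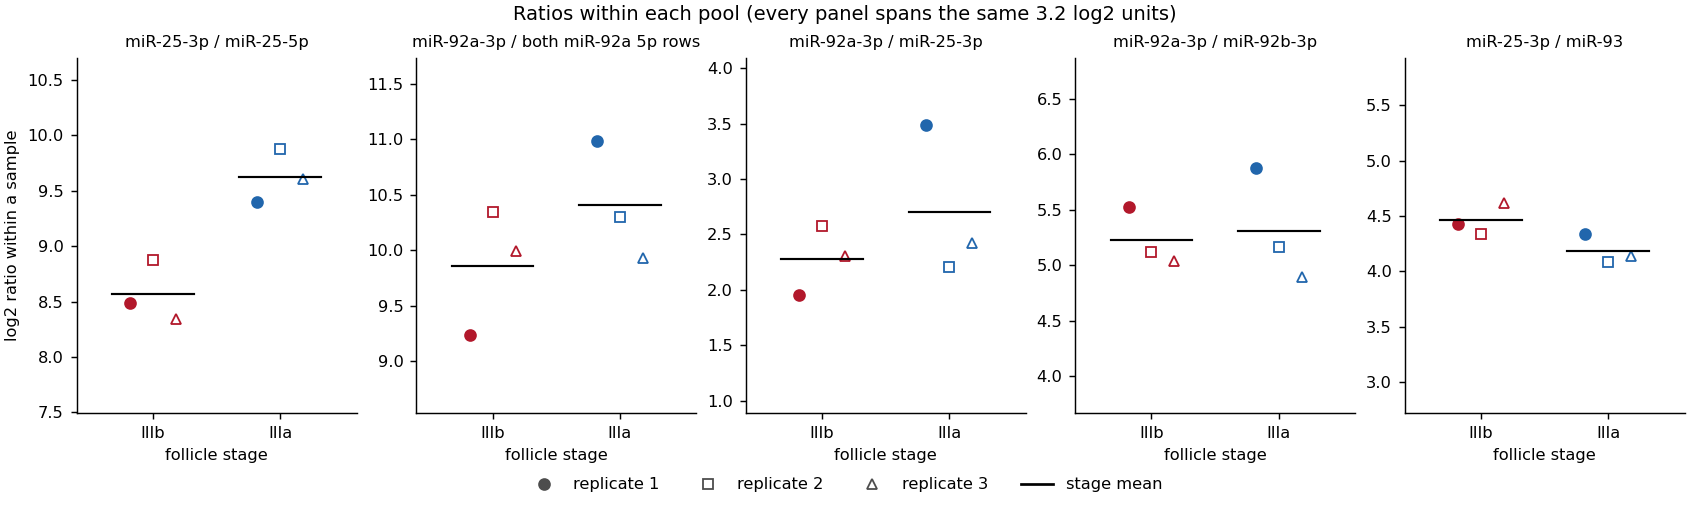
Log2 ratio of normalized counts within each pool for 5 pairs of members, in stage IIIb (red, left) and stage IIIa (blue, right), with a line at the stage mean and the same span on every vertical axis. The 3p to 5p ratio of miR-25 separates the stages, from 324 to 468 in stage IIIb and from 673 to 938 in stage IIIa, and stage IIIa replicate 1 is the highest pool in each of the 3 ratios of dre-miR-92a-3p.

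The partners encoded beside these members were 10 rows of miR-17, miR-18, miR-19 and miR-20, with miR-106 having no row. In limma none of the 10 passed at an adjusted p under 0.05, and by unadjusted p, at 0.05 or less, 0 passed. Their log2 fold changes had a median of -0.14 and a range of -0.71 to 0.61, beside the median of 0.15 over all miRNAs. The most abundant partner, dre-miR-19b-3p, had a mean of 9569 normalized counts and a log2 fold change of -0.06 (SE 0.32). dre-miR-20a-5p, whose log2 fold change was -0.42 with an SE of 0.31 (adjusted p = 0.554 in limma), and dre-miR-18a, at -0.71 with an SE of 0.47 (adjusted p = 0.525 in limma), were lower in every stage IIIb pool than in any stage IIIa pool. These were 2 of the 10 partners, where 7.96% of all miRNAs were separated with stage IIIb lower and 11.8% with stage IIIb higher. With samples rescaled to equal totals, 4 partners, all lower in stage IIIb, had an unadjusted p no higher than 0.05, and 0 had an adjusted p under 0.05. On that scaling 6.92% of all miRNAs were higher and 14.5% lower by the same limit.

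Arranged by gene neighbourhood, the signs of the fold changes depended in part on the scaling. As deposited, the listed rows of the miR-363 group were positive, with dre-miR-363-3p at 0.49, dre-miR-18c at 0.61, dre-miR-19c-3p at 0.29 and dre-miR-20b-5p at 0.15, where the median of all miRNAs was itself 0.15. With equal totals dre-miR-363-3p was at 0.17 and dre-miR-18c at 0.30, but dre-miR-19c-3p was at -0.03 and dre-miR-20b-5p at -0.16, beside the median of -0.16 over all miRNAs. Of the rows named for genes beside mir92a-1, dre-miR-92a-3p was at -0.33, dre-miR-17a-5p at -0.39 and dre-miR-18a at -0.71 as deposited. Negative too were dre-miR-19a-3p at -0.37, dre-miR-19b-3p at -0.06 and dre-miR-20a-5p at -0.42. All of these stayed negative under the 3 rescalings. Each rescaling lowered the fold changes, however, so a negative row could not change sign, and nothing is drawn from this. The minor strands dre-miR-92a-5p, at 0.20, and dre-miR-20a-3p, at 0.03, were positive as deposited, and negative with equal totals, at -0.10 and -0.28. dre-miR-92a-3p and dre-miR-17a-5p can also come from the mir92a-2 group. In the miR-25 group dre-miR-19d-3p was at -0.22 and dre-miR-93 at -0.18 as deposited, beside dre-miR-25-3p at 0.09 and dre-miR-25-5p at 1.13. None of these values had an adjusted p under 0.05, the difference between the groups was not tested, and dre-miR-19b-3p is 1 mismatch from dre-miR-19a-3p and from dre-miR-19d-3p, so that their reads may not be fully told apart.

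**Figure D5:**
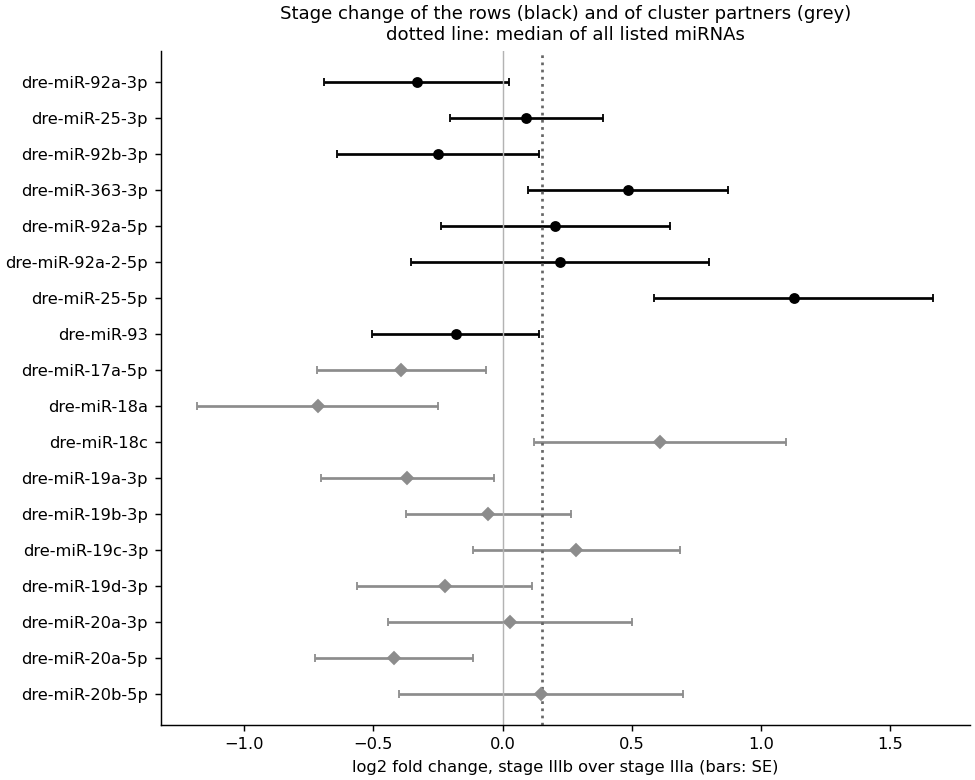
Log2 fold change of stage IIIb over stage IIIa (horizontal axis, bars show the SE of limma) for the 8 members (black circles) and the 10 partner rows (grey diamonds), with a dotted line at the median of all listed miRNAs, 0.15. dre-miR-25-5p is the farthest to the right at 1.13, and the SE bar of each other member reaches 0 or 0.15.

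Outside the members, the miRNAs whose pattern over the 6 samples was most like that of dre-miR-92a-3p were ssa-miR-101b-5p, dre-miR-222a-3p and dre-miR-30e-5p. Likeness was the root mean square difference between log2 values, each centred on its own mean, and it was 0.15, 0.17 and 0.22 for these rows against a median of 0.69 over all rows that are no members. The nearest member was dre-miR-92b-3p at 0.33, and dre-miR-92a-2-5p was at 0.48. dre-miR-222a-3p had 7264, 10838 and 15527 normalized counts in stage IIIb, against 22906, 11374 and 15058 in stage IIIa. Like dre-miR-92a-3p it was highest in stage IIIa replicate 1 and lowest in stage IIIb replicate 1, which its choice by likeness makes likely.

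For dre-miR-25-5p the most alike rows were dre-mir-125a-1-p3 at 0.21, dre-miR-107b at 0.28 and dre-miR-210-5p at 0.34, against a median of 0.71. dre-mir-125a-1-p3, a strand assigned by the authors to the unannotated 3′ arm of a miR-125a hairpin, had 99.6, 111 and 189.7 normalized counts in stage IIIb, against 61.5, 52.1 and 88.2 in stage IIIa. It too was higher in every stage IIIb pool, which a choice by likeness makes likely. The nearest member was dre-miR-363-3p at 0.39, and dre-miR-25-3p, from the same hairpin as dre-miR-25-5p, was at 0.56.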

How the data were processed

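Small RNA of 3 stage IIIb and 3 stage IIIa samples was sequenced by the authors, who removed adaptor dimers, low complexity reads, other RNA families and repeats with ACGT101-miR (version not given in the sources used here), aligned the rest with 1 mismatch and varying ends allowed to zebrafish precursors of miRBase, then to those of other species and to the zebrafish genome GRCz11, and divided the counts by the sample's library size parameter, which is not defined further. These normalized counts are what was deposited, and they were used as a signal and not as raw counts, so how reads were shared between precursors is as the authors made it.

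Members were taken by name, and members, lists and tests were chosen with earlier results of these data known. Named rows are the members, the partners by number, the miRNAs with a member's seed and the 3 most alike rows for dre-miR-92a-3p and dre-miR-25-5p. Stages were compared on log2(normalized count + 1) by a two-sided limma fit (limma 3.58.1, R 4.3.3) with a variance trend on the mean, no filter on low values beyond that of the authors, and Benjamini-Hochberg adjustment over all 289 miRNAs. This scale understates changes of low miRNAs. The fit was tested on simulated data with planted changes larger than that of any member. It therefore does not show how often changes of the size seen here would be called. Shares and log2 ratios were compared by exact permutation over all 20 ways to place the samples, adjusted over 17 tests. The step of the values, taken as 1 read, fitted 82.8% to 85.9% of values under 400 in each sample at a tolerance of 0.01. Members came out whole in 6 of 6 samples, except dre-miR-92a-3p, in 1 of 6. In the other samples that row fell midway between whole steps, as at 133371.5 steps in stage IIIb replicate 1. The cause was not tested. Recovered reads served only for counting intervals, since not all values were whole. No pair of samples of a stage agreed within sampling noise. The sources do not say whether pools of the 2 stages shared fish, so p-values measure the spread between these pools. Alternatives were pseudocounts of 0.1 and 10, a minimum mean of 100, 3 rescalings, limma without the trend or with robust empirical Bayes, an equal-variance linear model on untransformed values, the replicate number as a block and each sample left out in turn. The ratios to dre-miR-93 were added after the values were seen.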

Additional observations from a re-analysis of the deposited data

How the results depend on the processing

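None of the members and none of the partners passed an adjusted p of 0.05 under any alternative run. The median log2 fold change of the partners was -0.45 with samples rescaled to equal totals and -0.52 with totals over the miRNAs that are no members. Those rescalings gave -0.22 and -0.28 for dre-miR-25-3p, -0.084 and -0.15 for dre-miR-92a-2-5p, and -0.10 and -0.17 for dre-miR-92a-5p, and the median of ratios gave -0.078 for dre-miR-25-3p. dre-miR-93 had an unadjusted p of 0.0415 with totals over the miRNAs that are no members (limma, log2 fold change -0.56, adjusted p = 0.197). The share of all miRNAs at 0.05 or less was not counted on that scaling. With equal totals it was 14.5% lower and 6.92% higher in stage IIIb. The signs for dre-miR-25-3p and the 5p strands of miR-92a are opposite to those as deposited. The median over all 289 miRNAs was 0.15 as deposited, -0.16 with equal totals and -0.02 with the median of ratios. Over the fits that each left out 1 sample, the stage difference on the log2 scale ranged from -0.041 to 0.19 for dre-miR-25-3p, from -0.12 to 0.48 for dre-miR-92a-2-5p and from -0.49 to 0.14 for dre-miR-92b-3p. The difference in the log2 ratio of dre-miR-92a-3p to dre-miR-92b-3p ranged from -0.29 to 0.20. In percent of the counts, the differences ranged from -0.000485 to 0.00471 for dre-miR-363-3p, from -0.00076 to 0.000104 for dre-miR-92a-2-5p and from -0.0012 to 0.000524 for dre-miR-92a-5p. The ratio of the highest to the lowest pool of dre-miR-92a-3p ranged from 1.09 to 1.71 in stage IIIb and from 1.33, without replicate 1, to 2.15 in stage IIIa. In stage IIIb it was 1.09 after rescaling to equal totals and 1.32 with the median of ratios.

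Over all 289 miRNAs, 7 were higher at an adjusted p under 0.05, and 4 with totals over the miRNAs that are no members, 3 without the trend, 0 in the equal-variance model and 1 to 6 with a sample left out. Of these fits, those without stage IIIb replicate 3, stage IIIa replicate 1 and stage IIIa replicate 2 gave 1, 2 and 1. The 6 lower ones became 0 in the equal-variance model. Under a replicate block 4 were higher, and dre-miR-25-5p had a log2 fold change of 1.13 with an adjusted p of 0.182. Samples of the same number deviated together with correlations of 0.103, 0.280 and -0.0336, so the numbers were not taken as pairs. The causes of these shifts were not tested. Depth limits the 5p strands most, with as few as 21 reads in a pool.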
